A study of Mus musculus with 6 samples.

Results

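The respiratory chain genes of the mouse nuclear genome were followed in ovarian cells given a mimic of the microRNA miR-15a-3p or a negative control mimic. They are the genes for the protein complexes of the inner mitochondrial membrane that carry out oxidative phosphorylation. Members were chosen by gene symbol alone: every symbol that starts with Nduf, Uqcr or Atp5, or with Cox and a digit between 4 and 8, together with Sdha, Sdhb, Sdhc, Sdhd, Cyc1 and Cycs. The choice gave 92 of 21182 named genes. Of these, 84 were counted as subunits. They were 36 of complex I, 4 of complex II, 9 of complex III, 20 of complex IV and 15 of complex V. The 20 of complex IV include Cox7a2l and Ndufa4l2, which encode relatives of subunits. The other members were Ndufaf1, Ndufaf2, Ndufaf3 and Ndufaf4, which encode assembly factors of complex I, Cycs, which encodes the carrier cytochrome c, and 3 genes whose symbols match without their products being subunits. Those 3 are Cox4nb, now called Emc8, and Atp5s and Atp5sl, now called Dmac2l and Dmac2.

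The cells were B/CMBA.Ov, a mouse ovary line of the BALB/c strain. On 3 arrays they had been transfected with the miR-15a-3p mimic, and on 3 further arrays with the negative control mimic, both at 20 nM, and RNA was taken 48 h later and hybridised to a whole-transcript array. Both groups therefore share the line, the lipid transfection and the dose of small RNA, and neither is an untransfected culture. The labels do not say whether replicates were separate cultures, so p-values cover only the scatter of these arrays, and that scatter may be technical.

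The respiratory chain passes electrons from NADH through complex I and from succinate through complex II to coenzyme Q. Complex III hands them on to cytochrome c and complex IV to oxygen, and the protons moved on the way drive ATP synthesis by complex V. Except for complex II, each complex joins nuclear-encoded subunits with a few encoded by mitochondrial DNA, and specialised assembly factors put them together. A microRNA pairs through its seed with messenger RNAs, most often in their 3′ untranslated regions, and lowers their translation or stability. The mature sequence of miR-15a-3p is printed because it names the treatment, and that of the other arm of the same precursor, miR-15a-5p, to show that the seeds differ. Capitals mark bases 2 to 8, the seed, in RefSeq's sequences from GRCm38.p6. They lie on the minus strand, at chr14:61632038-61632059 and chr14:61632075-61632096 in this order.
mmu-miR-15a-3p: cAGGCCAUacugugcugccuca
mmu-miR-15a-5p: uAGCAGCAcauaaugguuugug

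Few respiratory chain genes differed between the groups. At a limma adjusted p under 0.05, with adjustment over all named genes, 3 of the 92 members were lower on the mimic arrays, Ndufaf1, Cox7a2l and Cyc1, and 1 was higher, Ndufaf4. These 4 are 4.35% of the members, while the same test called 2483 of all 21182 named genes, or 11.7%, with 5.64% lower and 6.09% higher. Among the 10591 genes whose mean signal was at or above the median over genes, to which 83 of the 92 members belong, it called 19.2%, with 9.78% lower and 9.44% higher. Without adjustment, 14 members (15.2%) had a p under 0.05, against 24.1% of all genes and 35.9% of the brighter genes. The values of the groups did not overlap for 19 members (20.7%), against 29.6% of all genes and 43.8% of the brighter genes. Leaving out mimic replicate 2, control replicate 2 or control replicate 3 gave 1, 1 and 0 lower members by the limma test, and leaving out mimic replicate 2 gave 2 higher. In both directions together, these settings called 3.26%, 2.17% and 1.09% of the members, against 8.51%, 9.27% and 6.04% of all genes.

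The differences of the members were small in size. The median log2 fold change, mimic over control, was -0.015 over the 92 members and 0.0066 over all named genes, with 49 members below 0 and 43 above. In size, the median was a log2 value of 0.057 for the members, a difference of 4.06%, against 0.089 for all genes and 0.12 for the brighter genes. Estimates over 1.2-fold in size were those of Ndufaf4, Ndufaf1, Cox7a2l, Ndufa6, Cyc1 and Ndufb7, 6 of the 92 members, against 2670 of all 21182 named genes. A size of 2-fold was reached by 0 of the members and by only 50 of all named genes. The 95% interval of the difference lay within 1.2-fold in either direction for 59 of the 92 members (10013 of all 21182 named genes). It lay within 1.5-fold for all 92 members and for 19996 of all named genes. The standard error of the members' log2 fold changes was between 0.058 and 0.16, with a median of 0.073.

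**Figure D1:**
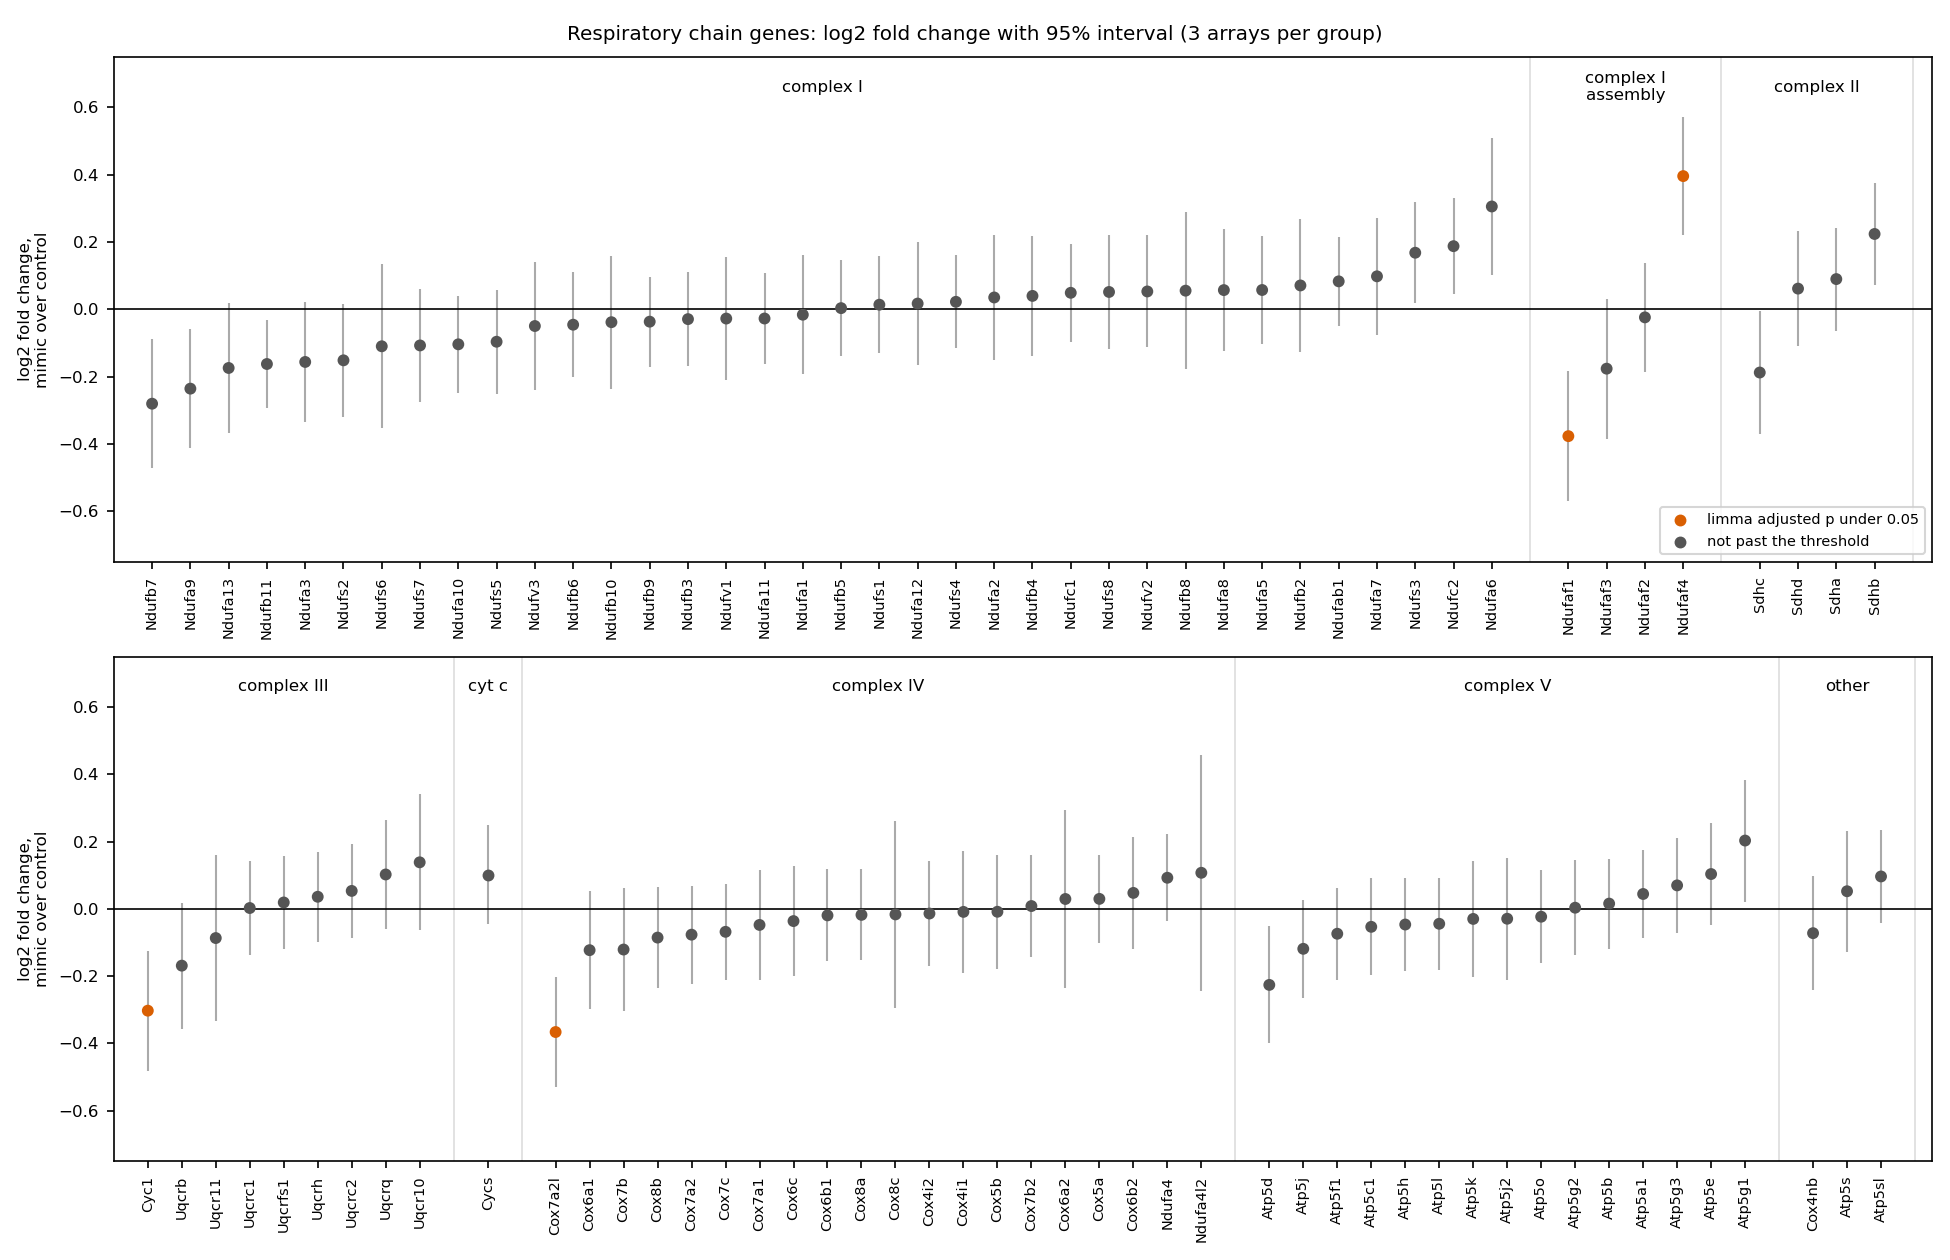
Log2 fold change of each of the 92 respiratory chain genes, miR-15a-3p mimic over negative control mimic (vertical axis), by complex and in rising order (horizontal axis). Points are estimates, bars are 95% intervals and orange marks a limma adjusted p under 0.05. The 4 orange points are Ndufaf1, Cox7a2l, Cyc1 and Ndufaf4, and complexes I, II and V have none.

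**Figure D2:**
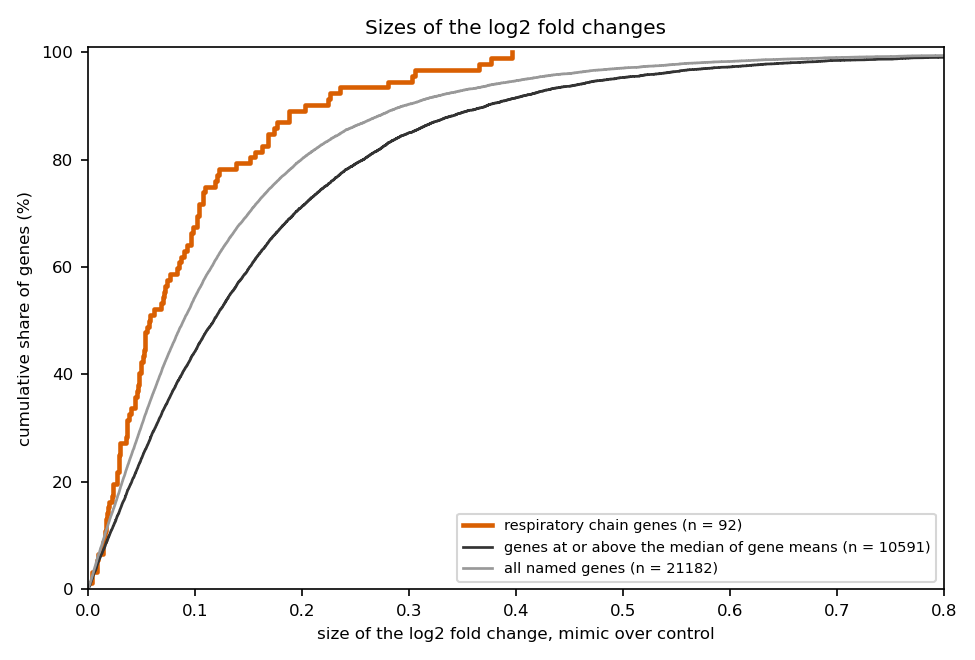
Cumulative share of genes (vertical axis, percent) by the size of the log2 fold change, mimic over control (horizontal axis), for the 92 respiratory chain genes, the 10591 brighter genes and all 21182 named genes. The curve of the respiratory chain genes lies to the left of the others over most of the range, with medians of 0.057, 0.12 and 0.089 in this order.

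The assembly factors of complex I held the largest difference in each direction. Ndufaf1 encodes an assembly factor that acts on the membrane arm. Its log2 values were 8.84, 8.66 and 8.89 on the mimic arrays and 9.04, 9.28 and 9.20 on the control arrays. All 3 mimic values lay below all 3 control values, and Ndufaf1 fell by 0.38 on the log2 scale in cells given the mimic (SE 0.087, limma adjusted p = 0.021), to 0.770 times the control. Ndufaf4 encodes a factor that works together with Ndufaf3 on the quinone module. Its log2 values were 10.36, 10.32 and 10.39 on the mimic arrays, against 9.80, 10.07 and 10.01 on the control arrays. Here every mimic value was above every control value, and Ndufaf4 rose by 0.40 on the log2 scale (SE 0.078, limma adjusted p = 0.011), to 1.32 times the control. Its partner Ndufaf3 averaged 9.27 ± 0.19 on the mimic arrays and 9.44 ± 0.063 on the control arrays (SD, n = 3 each), a difference of -0.18 that did not pass the limma test (adjusted p = 0.29). Leaving out 1 array ended the call of Ndufaf1 for mimic replicate 1, mimic replicate 2, control replicate 2 and control replicate 3, with adjusted p between 0.054 and 0.085. The call of Ndufaf4 held without each of the 6 arrays.

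The 250 bases before the transcription starts of Ndufaf4 and Ndufaf1, the members with the highest and the lowest estimate, are given from RefSeq and GRCm38.p6. The first lies at chr4:24897833-24898082 on the plus strand and the second at chr2:119662835-119663084 on the minus strand. Capitals mark matches to GCATGCGC, the core motif of the factor NRF-1, a known activator of respiratory chain genes. The first holds 1 match on each strand, which overlap, and the second holds none.
Ndufaf4: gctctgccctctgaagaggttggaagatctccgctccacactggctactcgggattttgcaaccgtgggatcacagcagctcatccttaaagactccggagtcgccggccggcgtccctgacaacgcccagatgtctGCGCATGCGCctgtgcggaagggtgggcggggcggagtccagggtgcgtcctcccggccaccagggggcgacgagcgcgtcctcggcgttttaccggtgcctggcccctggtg
Ndufaf1: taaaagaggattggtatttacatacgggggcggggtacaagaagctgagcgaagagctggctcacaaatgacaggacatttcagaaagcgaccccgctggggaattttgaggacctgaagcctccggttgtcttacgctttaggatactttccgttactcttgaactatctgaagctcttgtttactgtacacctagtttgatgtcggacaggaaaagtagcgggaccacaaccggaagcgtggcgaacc

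The table held 81 promoters of 75 members. The motif GCATGCGC, searched on both strands of the 250 bases before the start, stood in 10 of these 81 (12.3%), each of another member, and in 741 of all 32851 promoters of that length (2.26%). The members with a match had estimates in both directions: log2 fold changes were 0.40 for Ndufaf4, 0.31 for Ndufa6, 0.22 for Sdhb, 0.10 for Cycs, 0.057 for Ndufa8 and 0.0035 for Atp5g2. They were -0.027 for Ndufa11, -0.030 for Atp5k, -0.044 for Atp5l and -0.12 for Cox6a1, and of these 10 only Ndufaf4 passed the limma test. The motif CCGGAAGT, also searched on both strands, of the ETS family, to which the activator GABP belongs, stood in 3 of the 81 promoters (3.7%) and in 2.88% of all promoters. A match of letters is a description and no evidence of binding, and no relation between motifs and differences was tested.

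Complex I, the NADH dehydrogenase, had no subunit past the threshold. Of its 36 measured subunits, 18 lay below 0 and 18 above, with a median log2 fold change of -0.0061. An unadjusted p under 0.05 in the limma test was found for 6 (16.7%), against 24.1% of all genes and 35.9% of the brighter genes. Its functional modules had medians close to 0: 0.020 over 10 subunits of the electron input module, where NADH is oxidised, -0.028 over 6 subunits of the quinone module and -0.029 over 19 subunits of the membrane arm, which pumps protons. The acyl carrier protein Ndufab1 was counted apart. The brightest probe signal of the complex belonged to Ndufb9, an accessory subunit of the membrane arm. It averaged 11.71 ± 0.036 on the mimic arrays and 11.74 ± 0.025 on the control arrays (SD, n = 3 each), with a 95% interval of the log2 fold change between -0.17 and 0.097.

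Ndufa6, Ndufb7, Ndufa9 and Ndufc2 of complex I came close to the threshold, with limma adjusted p between 0.05 and 0.1, in both directions. Ndufa6, an accessory subunit that binds an acyl carrier protein, had log2 values of 8.49, 8.20 and 8.51 on the mimic arrays and 8.18, 8.03 and 8.07 on the control arrays. The groups did not overlap, although mimic replicate 2 lay only just above control replicate 1, and the log2 fold change was 0.31 (SE 0.091, adjusted p = 0.060). Ndufb7, an accessory subunit of the membrane arm, had log2 values of 10.00, 9.67 and 9.78 on the mimic arrays, against 10.13, 10.07 and 10.10 on the control arrays. The control arrays lay close together and above every mimic array, with a log2 fold change of -0.28 (SE 0.085, adjusted p = 0.064). Ndufa9, a nucleotide-binding subunit of the quinone module, averaged 10.61 ± 0.074 on the mimic arrays and 10.85 ± 0.13 on the control arrays (SD, n = 3 each, log2 fold change -0.24, adjusted p = 0.093). Ndufc2, a small subunit of the membrane arm, averaged 11.46 ± 0.047 on the mimic arrays and 11.27 ± 0.057 on the control arrays (SD, n = 3 each, log2 fold change 0.19, adjusted p = 0.095). Ndufs3, a core subunit of the quinone module, had a log2 fold change of 0.17 (SE 0.067, adjusted p = 0.16). None of these 5 genes is counted as changed.

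Complex II, succinate dehydrogenase, is encoded by 4 nuclear genes and also belongs to the tricarboxylic acid cycle. None of them passed the threshold, and their estimates pointed in different directions. In the limma test 2 of the 4 had an unadjusted p under 0.05, against 24.1% of all genes and 35.9% of the brighter genes. Sdhb, the iron-sulfur subunit, had log2 values of 9.33, 9.18 and 9.23 on the mimic arrays and 9.02, 8.96 and 9.08 on the control arrays. Each mimic value was above each control value, with a log2 fold change of 0.22 (SE 0.068, adjusted p = 0.064). Sdhc, a membrane anchor subunit, had log2 values of 10.39, 10.15 and 10.18 on the mimic arrays and 10.48, 10.33 and 10.48 on the control arrays. Mimic replicate 1 lay above control replicate 2, so the groups overlapped, and the log2 fold change was -0.19 (SE 0.081, adjusted p = 0.19). The flavoprotein subunit Sdha averaged 11.36 ± 0.034 on the mimic arrays and 11.27 ± 0.094 on the control arrays (SD, n = 3 each), and the second anchor, Sdhd, had a log2 fold change of 0.062.

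Complex III, the cytochrome bc1 complex, had 1 of its 9 measured subunits (11.1%) past the threshold, against 11.7% of all genes and 19.2% of the brighter genes. Cyc1 encodes cytochrome c1, the haem subunit that passes electrons to cytochrome c. Its log2 values were 9.83, 9.56 and 9.69 on the mimic arrays and 10.06, 10.00 and 9.94 on the control arrays. The highest mimic value lay below the lowest control value, and Cyc1 fell by 0.30 on the log2 scale (SE 0.080, limma adjusted p = 0.038), to 0.811 times the control. Leaving out any array except mimic replicate 1 ended this call, with adjusted p between 0.080 and 0.11 and a log2 fold change between -0.33 and -0.24. With the replicate number as a block the adjusted p was 0.052. Cycs, the partner that accepts the electrons, averaged 11.47 ± 0.063 on the mimic arrays and 11.37 ± 0.058 on the control arrays (SD, n = 3 each, log2 fold change 0.10, adjusted p = 0.41).

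The other subunits of complex III gave no call. The Rieske iron-sulfur protein Uqcrfs1 and the core proteins Uqcrc1 and Uqcrc2 had log2 fold changes of 0.019, 0.0026 and 0.053. Uqcr10, an accessory subunit, had the highest estimate of the complex, 0.14 (SE 0.090, adjusted p = 0.41). Uqcrh, the hinge protein beside cytochrome c1, averaged 12.42 ± 0.033 on the mimic arrays and 12.39 ± 0.034 on the control arrays (SD, n = 3 each), with a log2 fold change of 0.036. The median over the 9 subunits was 0.019.

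Complex IV, cytochrome c oxidase, had 1 of 20 genes (5%) past the threshold, Cox7a2l, against 11.7% of all genes and 19.2% of the brighter genes. The median log2 fold change of the 20 genes was -0.017. Cox7a2l encodes a relative of subunit 7a, also called SCAF1, known as an assembly factor of supercomplexes, in which complexes III and IV are joined. Whether its product has this function in these cells was not tested. Its log2 values were 11.33, 11.14 and 11.34 on the mimic arrays and 11.59, 11.67 and 11.66 on the control arrays. The groups stood apart, and Cox7a2l fell by 0.37 on the log2 scale (SE 0.073, limma adjusted p = 0.011), to 0.776 times the control. Without control replicate 3 the adjusted p was 0.052. This value comes from a transcript cluster read by 1 exon-level probe set. A second cluster of the same symbol, read by 2 probe sets, had a log2 fold change of -0.26, with an adjusted p of 0.075 in a limma test over all clusters, against 0.040 for the first cluster in that test.

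Several subunits of complex IV come as isoforms, 1 made in most tissues and others in heart, skeletal muscle, lung or testis. None of the isoforms compared here passed the limma test except Cox7a2l. The common forms Cox4i1, Cox6a1, Cox6b1, Cox7a2, Cox7b and Cox8a had log2 fold changes of -0.0089, -0.12, -0.019, -0.077, -0.12 and -0.018. For Cox7b the value comes from a cluster read by 1 probe set, and its other cluster, read by 3, had 0.024, so that the mean of its clusters gave -0.048. For Cox6a1 the mean of its clusters gave -0.22 (adjusted p = 0.074). The muscle forms Cox6a2, Cox7a1 and Cox8b had 0.029, -0.048 and -0.085. The lung form Cox4i2 had -0.014, and Cox6b2, Cox7b2 and Cox8c, known from testis, had 0.047, 0.0084 and -0.016. Ndufa4, once counted with complex I and now with complex IV, had log2 values of 12.25, 12.26 and 12.27 on the mimic arrays and 12.16, 12.15 and 12.19 on the control arrays. All mimic values were above all control values, yet the log2 fold change was 0.093 (SE 0.058, adjusted p = 0.39), a small difference between arrays that lay close together. Its relative Ndufa4l2, a gene known to respond to low oxygen, had the widest interval of all members, between -0.24 and 0.46 (log2 fold change 0.11).

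**Figure D3:**
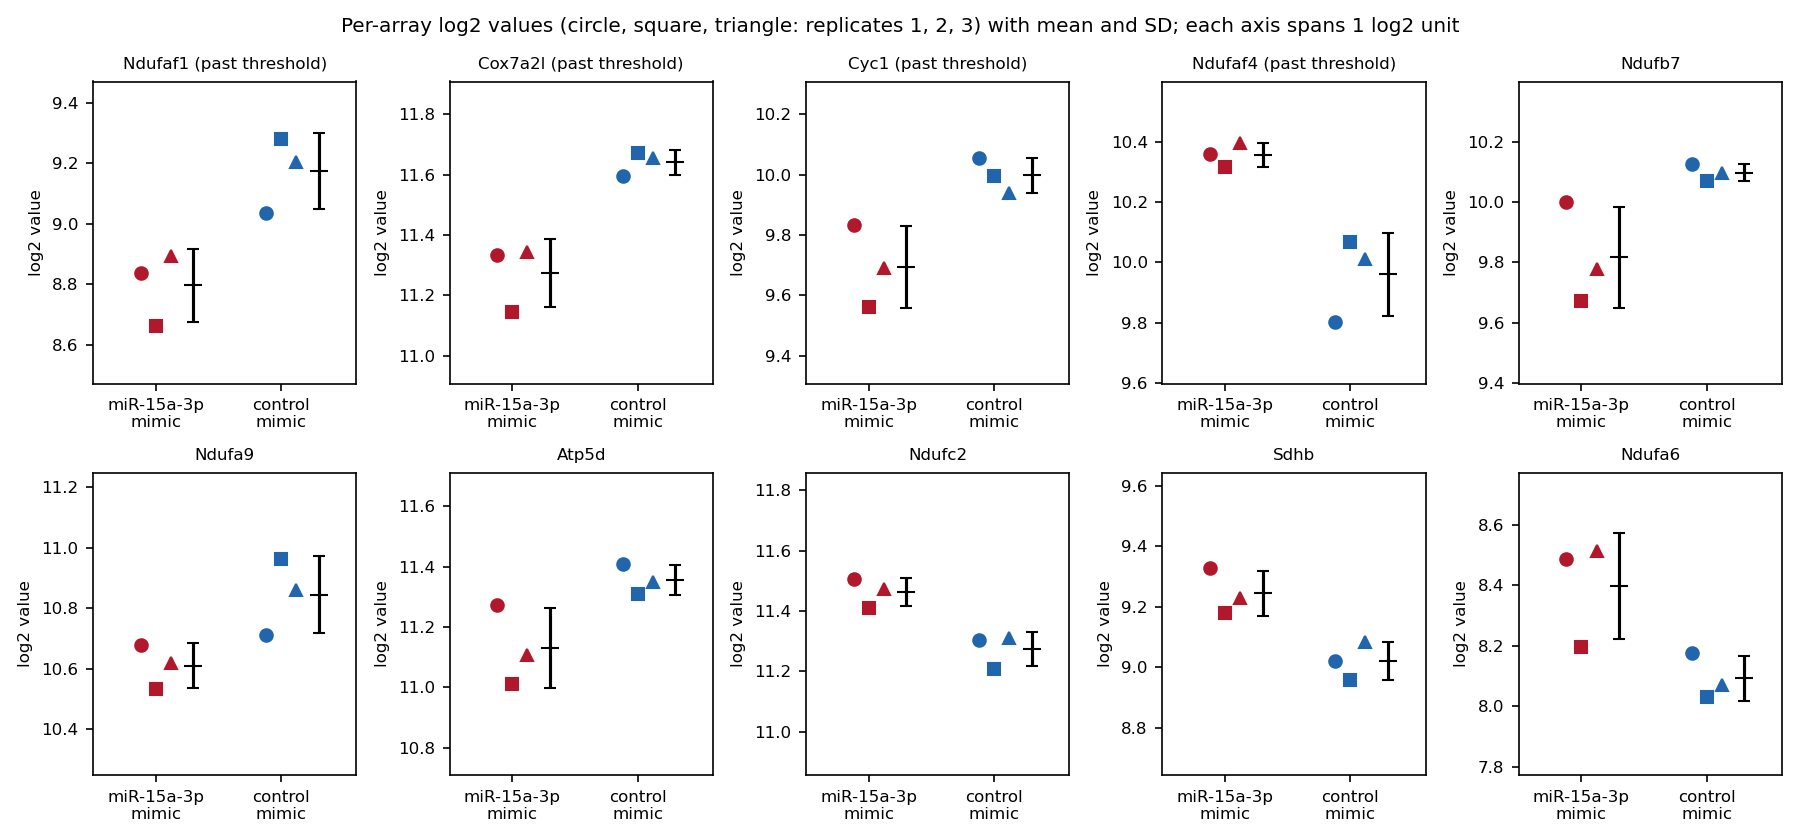
Log2 values per array (vertical axes, each spanning 1 log2 unit) in miR-15a-3p mimic and negative control mimic cells (horizontal axes) for the 4 genes past the threshold and the 6 with an adjusted p between 0.05 and 0.1. Circles, squares and triangles are replicates 1, 2 and 3, and the black bars are the mean and SD. In all 10 genes the groups do not overlap, but the genes were picked by their p on these same arrays. Over all named genes the groups do not overlap for 29.6%.

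Complex V, the ATP synthase, had no gene past the threshold among 15. In the limma test 2 (13.3%) had an unadjusted p under 0.05, against 24.1% of all genes and 35.9% of the brighter genes. Atp5d, the delta subunit of the F1 head's central stalk, had log2 values of 11.27, 11.01 and 11.11 on the mimic arrays and 11.41, 11.31 and 11.35 on the control arrays. Every mimic array was below every control array, and the log2 fold change was -0.23 (SE 0.078, adjusted p = 0.0996). Atp5g1, Atp5g2 and Atp5g3 encode the same subunit c of the membrane ring, and none passed the test. Atp5g1 had log2 values of 10.46, 10.20 and 10.29 on the mimic arrays and 10.20, 10.05 and 10.09 on the control arrays, which overlap at mimic replicate 2 and control replicate 1 (log2 fold change 0.20, SE 0.081, adjusted p = 0.15). Atp5g2 and Atp5g3 had log2 fold changes of 0.0035 and 0.070. Atp5b, the catalytic beta subunit, averaged 12.86 ± 0.043 on the mimic arrays and 12.85 ± 0.015 on the control arrays (SD, n = 3 each), with a 95% interval of the log2 fold change between -0.12 and 0.15. The median over the 15 genes was -0.029.

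Set side by side, the complexes had median log2 fold changes of -0.0061 (I), 0.076 (II), 0.019 (III), -0.017 (IV) and -0.029 (V). The spread of these medians between replicates of a group was an SD of 0.064, 0.072, 0.051, 0.048 and 0.043 in the same order. At this setting only the median of complex II, over 4 genes, exceeded that spread, and by little, but which medians did so changed with the setting. With median centring, complexes IV and V had -0.049 and -0.061, beyond the spread just given, and complex II had 0.044, within it. Without mimic replicate 1 complex IV had -0.054 and complex II 0.035. Without control replicate 1 complex II had 0.035, and without control replicate 2 complexes IV and V had -0.062 and -0.056. The shares of the complexes' genes past the limma threshold were 0 of 36, 0 of 4, 1 of 9, 1 of 20 and 0 of 15. Of all genes the same test called 11.7%, and of the brighter genes 19.2%. The 55 members not named by the rule used here had log2 fold changes between -0.17 and 0.10 and adjusted p of 0.11 or more.

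Within each group, the same array was often the highest or the lowest for many members. Among the mimic arrays, replicate 1 held the highest value for 60 of the 92 members (65.2%, against 48.7% of all genes), and replicate 2 the lowest for 68 (73.9%, against 40.1%). Among the control arrays, replicate 1 held the highest value for 57 members (62%, against 40.1%) and replicate 2 the lowest for 54 (58.7%, against 39.6%). As a deviation from each gene's mean over the 6 arrays, the members' median was 0.050, -0.050 and -0.00048 on mimic replicates 1, 2 and 3, and 0.044, -0.026 and 0.0040 on control replicates 1, 2 and 3. Over all named genes the same medians were 0.029, 0.0012 and -0.016 on the mimic arrays and 0.013, -0.020 and -0.0027 on the control arrays. Complex IV stood highest on control replicate 1, at 0.11, and complex II stood highest on mimic replicate 1, at 0.12, and lowest on control replicate 1, at -0.10. Without mimic replicate 2 the members' median log2 fold change was 0.014, and without mimic replicate 1 it was -0.036. The part of such shared shifts between arrays in the single differences was not tested.

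**Figure D4:**
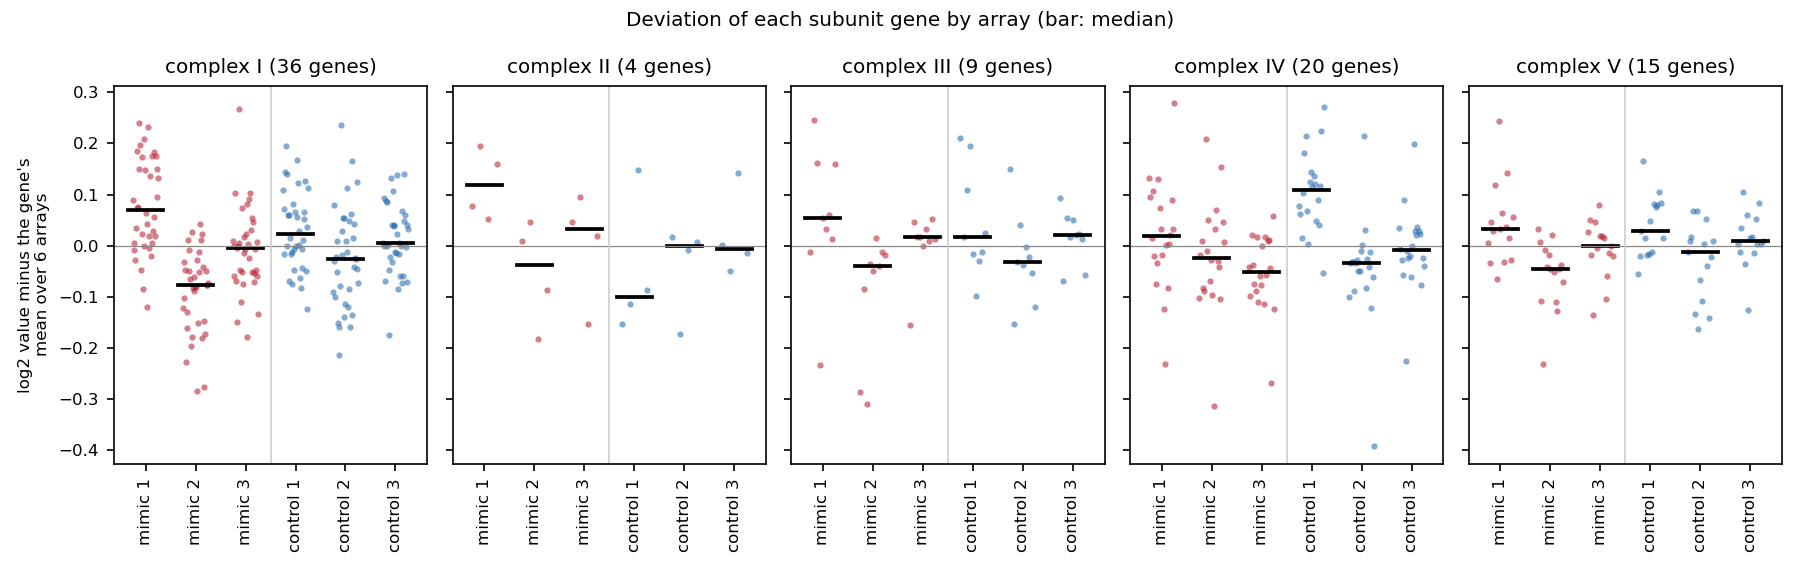
Log2 value of each subunit gene minus its mean over the 6 arrays (vertical axis), by array (horizontal axis) and complex, with mimic arrays in red and control arrays in blue. Bars are medians; in complex I they are 0.069, -0.077 and -0.0050 on the mimic arrays and 0.022, -0.025 and 0.0044 on the control arrays.

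Where a symbol had several transcript clusters, the one with the highest mean was used. This applied to 24 members with 31 further clusters, and in the limma test over all clusters 0 of the further clusters were called at an adjusted p under 0.05. The estimates of the further clusters differed from those used by a median of 0.025 on the log2 scale. The largest gap was that of Uqcrh, whose dimmer cluster, read by 1 probe set, averaged 7.36 on the mimic arrays and 7.69 on the control arrays (log2 fold change -0.33, adjusted p = 0.24 over all clusters). The dimmer cluster of Cox6a1 likewise had -0.33 (adjusted p = 0.099). Genes of this family have many processed pseudogenes, and signals of near-identical copies cannot be told apart on this array. For 9 members the cluster used rested on 1 exon-level probe set.

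The authors' deposited table gives an own comparison of mimic and control for each exon-level probe set, with an unadjusted p-value, and does not say which arrays entered. In the authors' deposited table, 481 probe sets belonged to the members, and 58 of them had a p under 0.05 (12.1%), against 11.9% of all 241419 probe sets. Of these 58, 43 were lower (8.94% of the members' probe sets, against 6.44% of all) and 15 were higher (3.12%, against 5.51%). By complex, 21 were lower and 6 higher of 204 probe sets (I), 3 and 2 of 34 (II) and 4 and 3 of 56 (III). Complexes IV and V had 2 and 2 of 78 and 9 and 1 of 72, and the assembly factors of complex I had 4 and 1 of 18. In the authors' deposited table all 7 probe sets of Cyc1 were lower, 3 of them with p under 0.05, and all 5 of Ndufaf1 were lower, 1 of them with p under 0.05. The 3 probe sets of Ndufaf4 were all higher in the authors' deposited table, 1 with p under 0.05, and the 1 probe set of Cox7a2l was lower with a ratio of 0.733. For Atp5d, which missed the threshold per gene, the authors' deposited table has 5 of 5 probe sets lower with p under 0.05, with a median ratio of 0.793. For Sdhc it has 6 of 6 lower, 3 of them with p under 0.05, and for Ndufb7 3 of 3 lower, 2 of them with p under 0.05. For Ndufaf3 the authors' deposited table has 5 of 5 lower, 3 of them with p under 0.05. Other members that missed the threshold per gene went the other way in the authors' deposited table: Ndufs3 had 6 of 7 probe sets higher, Ndufa4 4 of 5 and Uqcrc2 14 of 16, with 2 at p under 0.05 in each. These members were picked after their values were seen. Probe sets of a gene share their RNA and arrays and are not replicates.

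Genes that serve the chain without being part of it were called at shares between 5.88% and 23.1% of a list, against 11.7% of all genes. Of 34 measured assembly factors outside the Ndufaf family, 3 were lower and 2 higher, 14.7% in all, against 19.2% of the brighter genes named above, with a median log2 fold change of 0.057. Cox19 and Cox17 fell by 0.58 and 0.33 on the log2 scale (limma adjusted p = 0.0033 and 0.015), and both encode small proteins that act in copper delivery to complex IV. Sdhaf3, an assembly factor of complex II that helps to mature its iron-sulfur subunit, had log2 values of 9.03, 8.93 and 9.02 on the mimic arrays, against 8.36, 8.32 and 8.36 on the control arrays. The groups stood far apart, and Sdhaf3 rose by 0.65 on the log2 scale (SE 0.061, adjusted p = 0.00025), more than any of the 92 members. Sdhaf4, a second factor of complex II that acts on the flavoprotein subunit, had log2 values of 8.52, 8.29 and 8.45 on the mimic arrays and 7.75, 7.91 and 7.99 on the control arrays, and rose by 0.54 (SE 0.086, limma adjusted p = 0.0037). Sdhaf2, which serves flavin attachment to the same subunit, fell by 0.25 (adjusted p = 0.027), a call lost without any array except control replicate 1 (adjusted p between 0.061 and 0.13) and with the replicate block (0.071). The call of Cox17 was lost without mimic replicate 2 or mimic replicate 3 (adjusted p = 0.055 and 0.056), while those of Cox19, Sdhaf3 and Sdhaf4 held without each array.

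Coenzyme Q synthesis had 1 lower and 2 higher of 13 measured genes, 23.1% in all, with a median of 0.024. Coq8b, a kinase-like protein of the pathway, rose by 0.32 on the log2 scale (limma adjusted p = 0.0078). Coq10a, a coenzyme Q binding protein, fell by 0.28 (adjusted p = 0.013). That call was lost when mimic replicate 3 (0.0502) or control replicate 3 (0.080) was left out, and the mean over all clusters of the gene gave -0.15 (adjusted p = 0.17). Pdss2, a subunit of the enzyme that makes the isoprenoid tail, rose by 0.29 (adjusted p = 0.039), and this call was lost without any array except control replicate 2 (0.072 to 0.13), with the replicate block (0.053), with quantile normalization (0.058) and with median centring (0.077).

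Of 18 genes of the tricarboxylic acid cycle and pyruvate dehydrogenase, 3 were lower and 0 higher by the limma test, 16.7% in all, while the median was 0.050. Without adjustment, 4 were lower and 2 higher at a p under 0.05, or 33.3%, against 24.1% of all genes and 35.9% of the brighter genes. Idh2, the mitochondrial NADP-dependent isocitrate dehydrogenase, had log2 values of 10.48, 10.33 and 10.38 on the mimic arrays, against 10.72, 10.82 and 10.79 on the control arrays, and fell by 0.38 (SE 0.067, adjusted p = 0.0061). Ogdh and Dlst, subunits of the 2-oxoglutarate dehydrogenase complex, fell by 0.37 (adjusted p = 0.0069) and 0.22 (adjusted p = 0.045). The call of Dlst was lost without any array except mimic replicate 1 (0.067 to 0.16) and with the replicate block (0.12). Among 17 measured regulators of the chain and of mitochondrial DNA expression, including the genes of NRF-1, GABP and the coactivator PGC-1, 0 were lower and 1 was higher (5.88%), with a median of 0.090. At an unadjusted p under 0.05, 0 were lower and 8 higher, or 47.1% of the 17, against 24.1% of all genes and 35.9% of the brighter genes. Besides Mterf1a these were Ppargc1a, Tfb1m, Ppargc1b, Pprc1, Twnk, Tfam and Tfb2m, with log2 fold changes of 0.37, 0.32, 0.25, 0.24, 0.23, 0.23 and 0.18 and limma adjusted p between 0.059 and 0.18, named after their values were seen. The gene past the threshold was Mterf1a, a mitochondrial transcription termination factor with a near-identical copy in the mouse, read here by 1 probe set, which rose by 0.52 (adjusted p = 0.048). Its call was lost when mimic replicate 1 or 3, or control replicate 1 or 3, was left out (0.082 to 0.17) and with the replicate block (0.091). The 13 genes of mitochondrial DNA that encode subunits were not analysed here.

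**Figure D5:**
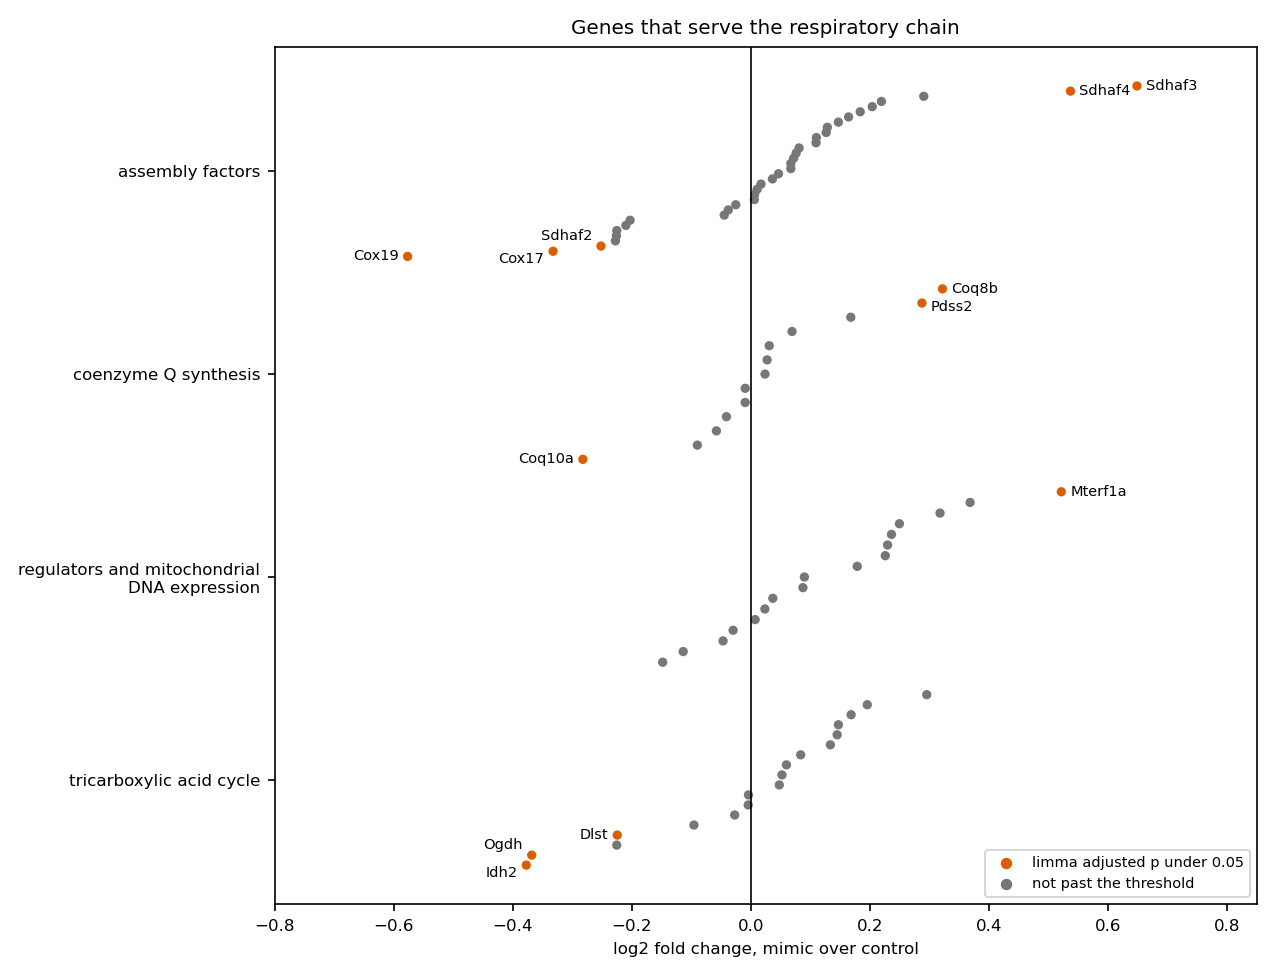
Log2 fold change, mimic over control (horizontal axis), of single genes in 4 lists that serve the respiratory chain (vertical axis), with orange for a limma adjusted p under 0.05. Sdhaf3, at 0.65, is the highest call and Cox19, at -0.58, the lowest, and in each list most genes are grey.

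Values of cell type markers were read from the same arrays, since a shift in cell makeup and a change per cell cannot be told apart in bulk RNA. Of 6 epithelial markers, Krt8, Krt19 and Krt18 were higher and Krt7 was lower in the mimic cells, while Cdh1 averaged 11.13 ± 0.016 on the mimic arrays and 11.10 ± 0.038 on the control arrays (SD, n = 3 each). Of 4 mesothelial and ovarian surface markers, Upk3b, Lrrn4 and Wt1 were lower, and Msln averaged 11.10 ± 0.078 and 11.05 ± 0.033 in the same order (SD, n = 3 each). The fibroblast markers gave 1 lower, Dcn, and 1 higher, Pdgfra, of 4. The limma test called 0 of 4 granulosa, 0 of 3 leukocyte and 0 of 2 endothelial markers, with 1, 0 and 0 at an unadjusted p under 0.05. It called 0 of 5 heart and skeletal muscle markers, with 1, Tnnt2, at an unadjusted p under 0.05. Of all named genes the same test called 11.7%, and 24.1% had an unadjusted p under 0.05. Among the brighter genes these shares were 19.2% and 35.9%. The deposited values carry no detection call, so a dim marker could not be called absent. The part of these marker differences in the values of the respiratory chain genes was not tested.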

How the data were processed

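RNA of 6 samples, 3 for each mimic, was measured on whole-transcript arrays. The deposited per-array values are log2 values of 35556 transcript clusters, as read from their range of 2.73 to 13.91; array medians were 6.94 to 7.01. Per the submitters' processing notes, the tools included Partek, Affymetrix Expression Console, MAS5 and RMA, whose roles, versions and build are not stated there. A table deposited by the authors holds, per the file headers, a linear ratio, an unadjusted p-value and other scores (signed fold changes, F statistics and sums of squares) for 241419 exon-level probe sets. A filtered copy of it was not used.

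Clusters were named from the deposited probe sets whose IDs lie between a cluster's ID and the next. Over 17009 clusters with at least 4 probe sets, fold changes in the 2 tables had a correlation of 0.928 for the cluster's own interval and with 0.0773 and 0.0762 for the next and previous ones. This gave 1 symbol for 24149 clusters, several for 800 and none for 10607. The cluster with the highest mean stood for each gene. Roles and complexes of the members were assigned by hand.

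The fit was limma 3.58.1 (lmFit, eBayes) in R 4.3.3 on the deposited log2 values, unfiltered and without a block, two-sided, and Benjamini-Hochberg adjustment over 21182 genes at 0.05. It was tested on simulated data. The number of arrays limits the precision. Same-numbered arrays of the groups had correlations of their deviations from the group means of -0.0537, -0.284 and 0.0381. For arrays of unlike number the correlations ranged from -0.299 to 0.331. With 3 arrays per group these values cannot settle whether the numbers, taken from the titles, pair the samples. Among the members, replicate 1 most often held the highest value and replicate 2 the lowest in both groups. Across clusters, arrays correlated with r of 0.9931 to 0.9957 within groups and 0.9892 to 0.9926 between them. Genes were named in the text if past the threshold, among the 8 largest rises or falls, the brightest of a complex, cytochrome c, or an isoform of a subunit. From the accompanying lists, those past the threshold were named. Other names, such as those in small counts, were chosen after values were seen. The members and lists were chosen with earlier results of these data known. Alternatives were a filter on dim genes (mean at or above 6), quantile normalization, median centring, the replicate block, each array left out, the mean of all clusters, updated symbols, a trended and robust prior and, chosen after seeing the data, a test of all clusters.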

Additional observations from a re-analysis of the deposited data

How the results depend on the processing

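Of 517 values of the 37 named members under the alternatives, 489 stayed on the same side of the threshold (values that never passed it may change sign), 13 lost their call, 15 gained one and 0 reversed a called direction. Lower members numbered 3 and higher members 1; without 1 array the counts ranged from 0 to 4 and from 1 to 2, and with control replicate 3 left out only Ndufaf4 was called. The trended and robust prior called 7 lower and 4 higher, 12.0% of the members against 15.1% of all genes, adding Atp5d, Ndufa6, Ndufa9, Ndufb7, Ndufb11, Ndufc2 and Sdhb. A filter at a mean log2 value of 6 called 4 lower and 3 higher, adding Ndufa6, Ndufb7 and Sdhb. That is 7.69% of the members tested, against 17.8% of all genes tested. The test of all clusters, chosen after seeing the data, called 1 lower and 1 higher. Quantile normalization and median centring each called 4 and 1, adding Ndufb7, or 5.43% of the members, against 14.3% and 11.5% of all genes. Updated symbols, with 96 members, also called 4 and 1, adding Ndufaf7, or 5.21% against 11.7% of all genes. All genes changed numbered 2483, and 1280 (without control replicate 3) to 2063 with 1 array left out, with 1550 without mimic replicate 3. Median centring moved the split of all calls to 988 higher and 1458 lower, against 1289 and 1194, and the median of all genes to -0.025. The medians of the complexes moved by less than the spread between single arrays of a group under every alternative run. Whether the replicate number pairs the samples is not known. With it as a block, 2 members were lower and 1 higher (3.26%), and 1732 of all genes were called (8.18%). Each array, when left out, ended the call of at least 1 of the 3 lower members. The causes were not tested.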
